A study of Mus musculus with 4 samples.

Results

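The 4 adult globin genes of the mouse, Hbb-bt and Hbb-bs for the beta chain and Hba-a1 and Hba-a2 for the alpha chain, were followed in single T-cell progenitors. They are 4 of the 31053 gene rows of the deposited count tables and were taken by symbol. They were chosen on UMI levels already seen in these same libraries, so their levels and their spread over cells and cultures are given as descriptions, with no test. Marrow progenitors of mice were turned toward the T lineage on OP9-Dll1, stromal cells that carry the Notch ligand Dll1, with both IL-7 and Flt3-ligand at 10 ng/ml. Every donor mouse carried a Bcl2 transgene, controls included, and the promoter of that transgene is not given in the sources used here. For overexpression of Runx1, progenitors of B6.Bcl2 mice aged 8 to 10 weeks received MSCV-Runx1-mCherry or MSCV-empty-mCherry on day 2 and were taken on day 4 or 6. For the double knockout, progenitors of B6.Cas9;Bcl2 mice, whose age is not given, received E42-gRunx1-humanNGFR together with E42-gRunx3-mTurquoise on day 2, with 3 guide pairs per gene, or guides against luciferase. These cells were taken on day 5 or 8. All cells were sorted as live, lineage-negative, CD45-positive and positive for the vector markers. Each of 2 experiments pooled 8 cultures, each marked with its own hashtag oligo, into 1 mRNA library; culture ran for 4 to 5 days in experiment 1 and for 4 to 8 days in experiment 2, per the labels. The hashtag columns name no condition, so the 8 hashtags of an experiment, numbered here in column order, are cultures of unknown vector, genotype and day.

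Haemoglobin of the adult mouse joins alpha chains made from Hba-a1 and Hba-a2 with beta chains made from Hbb-bs and Hbb-bt, and each chain holds a haem. Globin genes are known for very high transcription in erythroid precursors, where GATA1 and KLF1 act on the gene promoters and on distant enhancers, and alpha and beta chains are normally made in near balance. T-cell progenitors are not known as a site of haemoglobin synthesis. Globin RNA from red cells and their precursors is a familiar part of the free RNA that droplets take up from marrow suspensions.

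The promoters are shown because the genes that share a chain differed widely in counts here. Each sequence is the 250 bases before the annotated start, 5' to 3' on the gene's own strand, from RefSeq on GRCm38.p6, the build that the submitters' processing notes also name. Capitals mark matches to the letters CCAAT, to CACCC, which KLF1 can bind, to GATAAG, which factors such as GATA1 can bind, and to ATATAA, a form of the box that binds TBP, searched on both strands, so a match on the other strand appears as its reverse complement. Where 2 matches touch, their capitals run on. Hbb-bt lies at chr7:103812524-103813923 on the minus strand and its promoter at chr7:103813924-103814173. Hbb-bs lies at chr7:103826523-103827928 on the minus strand, with its promoter at chr7:103827929-103828178. Hba-a1 lies at chr11:32283672-32284486 on the plus strand, with its promoter at chr11:32283422-32283671.
Hbb-bt: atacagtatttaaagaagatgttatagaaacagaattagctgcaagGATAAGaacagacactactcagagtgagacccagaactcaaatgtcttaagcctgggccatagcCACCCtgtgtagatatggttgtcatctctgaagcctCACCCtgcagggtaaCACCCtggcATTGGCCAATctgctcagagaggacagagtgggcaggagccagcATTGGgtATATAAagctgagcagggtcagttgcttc
Hbb-bs: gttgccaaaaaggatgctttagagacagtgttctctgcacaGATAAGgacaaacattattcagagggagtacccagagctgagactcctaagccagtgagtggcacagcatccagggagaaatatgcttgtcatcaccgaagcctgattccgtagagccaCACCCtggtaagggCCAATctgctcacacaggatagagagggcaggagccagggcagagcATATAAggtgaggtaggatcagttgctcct
Hba-a1: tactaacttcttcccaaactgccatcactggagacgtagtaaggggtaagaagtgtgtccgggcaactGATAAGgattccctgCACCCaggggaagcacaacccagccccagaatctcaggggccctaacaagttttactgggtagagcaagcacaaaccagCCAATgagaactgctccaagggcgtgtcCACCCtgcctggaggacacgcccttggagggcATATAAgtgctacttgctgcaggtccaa
All 4 motifs were found in all 4 promoters. Among 32851 promoter windows of the same length, CCAAT was in 33.8%, CACCC in 52.0%, GATAAG in 6.55% and ATATAA in 9.1%. A Runx motif, TGTGGT, was in 14.0% of the windows and in 0 of these 4. The Hbb-bt and Hbb-bs windows were identical in 182 of 258 aligned columns (70.5%), with a longest shared run of 14 bases. Hbb-bt held 3 CCAAT and 3 CACCC matches, against 1 of each in Hbb-bs. The Hba-a2 promoter, at chr11:32296242-32296491, shares a run of 247 bases with that of Hba-a1 (97.6% identity) and is therefore not printed. A match is a description of letters and not a measured binding site. Whether these sequences have a part in the difference in counts was not tested.

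Kept cells, those with 500 genes or more and less than 10% of mitochondrial UMIs (unique molecular identifiers, which count captured molecules), numbered 9332 in experiment 1 and 10214 in experiment 2. Their median depths were 25246 and 26647.5 UMIs. A hashtag was called in 8797 and 8335 of them, where the top tag had at least 50 counts and at least 3 times the next. Hashtags held 691 to 1291 cells in experiment 1 and 855 to 1312 in experiment 2. The libraries had 39 cell barcodes in common. Levels are UMIs per 1000000 UMIs (CPM) of the summed cells, and intervals are exact 95% intervals that cover counting error only. With 1 library per experiment, there is no replicate of a known group. Of the kept cells, 51.3% and 43.8% carried T-lineage markers and 69.0% and 58.7% carried early progenitor markers, taken as at least 2 UMIs of at least 3 genes of a 10-gene list. The cells are labelled as Kit-high. By RNA, 10.9% of cells in experiment 1 and 29.98% in experiment 2 had no UMI of either Kit or Il2ra. Kit stood at 68.5 and 34.4 CPM over kept cells, so a count of 0 in a cell is not read against the label.

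Hbb-bt (ENSMUSG00000073940), an adult beta globin gene, was among the most abundant transcripts in both libraries. It had 404501 UMIs in the kept cells of experiment 1, or 1654 CPM, rank 107 among 19208 genes with a UMI. In experiment 2 it had 361947 UMIs, or 1224 CPM, rank 129 among 20016 genes. Over hashtags 1 to 8 of experiment 1 its level was 1352, 1201, 570.2, 659.8, 2174, 2514, 3284 and 3241 CPM, with a median of 1763 CPM. Hashtags 3 and 4 were the low ones and hashtags 7 and 8 the high ones, and only these last 2 had overlapping intervals (3260 to 3308 and 3212 to 3270.4 CPM). Over hashtags 1 to 8 of experiment 2 its level was 781, 350.2, 2175, 626, 1582, 1439.5, 1693 and 1379 CPM, with a median of 1409 CPM. There hashtag 2 was lowest and hashtag 3 highest, and no neighbours in the order had overlapping intervals. In both experiments these intervals leave out the spread over cells, so hashtags close in level are not told apart by them. The highest hashtag had 5.76 times the level of the lowest in experiment 1 (5.66 to 5.86) and 6.21 times in experiment 2 (6.08 to 6.34). Without hashtag 2 of experiment 2 its ratio was 3.47. Among genes averaging 50 CPM or more over hashtags, 38 of 2869 reached a ratio of 4 in experiment 1 (1.32%), as did 97 of 2643 in experiment 2 (3.67%). Hbb-bt ranked 24 and 62 in that order, and since it may have been picked for its spread nothing is read from the rank.

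**Figure D1:**
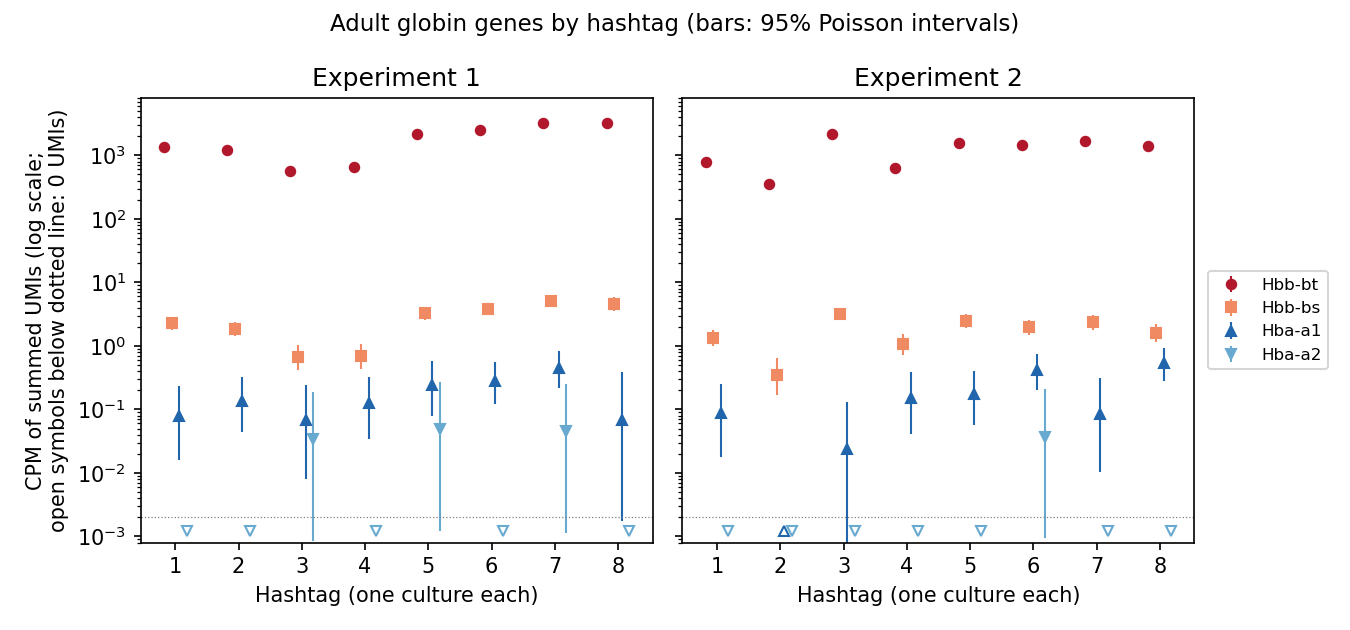
CPM of the 4 adult globin genes (y axis, log scale) in each of the 8 hashtags (x axis) of experiment 1 (left) and experiment 2 (right), from summed UMIs, with bars for 95% Poisson intervals and open symbols for 0 UMIs. Hbb-bt lies between 350.2 and 3284 CPM, Hbb-bs between 0.353 and 5.14 CPM, and the alpha genes at or below 0.539 CPM.

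Hbb-bs (ENSMUSG00000052305), the other adult beta globin gene, was counted at a small fraction of the Hbb-bt level. It had 605 UMIs in 548 cells of experiment 1 (5.87% of cells, 2.47 CPM) and 525 UMIs in 456 cells of experiment 2 (4.46%, 1.78 CPM), with at most 4 and 5 UMIs in a cell. Hashtags 1 to 8 had 2.26, 1.86, 0.674, 0.702, 3.27, 3.86, 5.14 and 4.55 CPM in experiment 1. They had 1.34, 0.353, 3.21, 1.07, 2.48, 1.98, 2.34 and 1.62 CPM in experiment 2. The lowest and the highest hashtags were the same as for Hbb-bt in both experiments, with ratios of 7.62 (4.71 to 12.95) and 9.09 (4.80 to 19.4). Per 1000 Hbb-bt UMIs there were 1.496 Hbb-bs UMIs (1.38 to 1.62) in experiment 1 and 1.45 (1.33 to 1.58) in experiment 2. By hashtag this proportion ran from 1.06 to 1.67 and from 1.008 to 1.72, and all 8 intervals of each experiment held the value of their kept cells. The proportion was thus not distinguishable between hashtags at this depth, while the levels themselves differed several-fold.

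Cells with more Hbb-bt also held Hbb-bs more often. In experiment 1 an Hbb-bs UMI was found in 0.26% of cells with 0 Hbb-bt UMIs (0.071 to 0.66%), 0.41% with 1 to 4, 3.22% with 5 to 49 and 14.6% with at least 50 (13.3 to 15.9%). The shares in experiment 2 were 0.059%, 0.39%, 3.25% and 15.6%. Both genes are close copies. How the counting treated reads that match both is not given in the sources used here, so the split between them is uncertain. CPM of UMIs is not divided by gene length, and how well each transcript is captured at its 3' end was not measured.

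The alpha genes were close to absent. Hba-a1 (ENSMUSG00000069919) had 44 UMIs in 35 cells of experiment 1 and 50 UMIs in 37 cells of experiment 2, with at most 5 and 4 UMIs in a cell. Hashtags 1 to 8 held 3, 5, 2, 4, 5, 8, 10 and 1 of these UMIs in experiment 1 and 3, 0, 1, 4, 5, 11, 2 and 12 in experiment 2. The highest levels were 0.451 CPM in hashtag 7 (0.216 to 0.829 CPM) and 0.539 CPM in hashtag 8 of experiment 2 (0.278 to 0.941 CPM). Hba-a2 (ENSMUSG00000069917) had 3 UMIs in 3 cells of experiment 1 and 4 UMIs in 3 cells of experiment 2, and most hashtags held 0. In a hashtag of experiment 1, the 3 counts that a reading of 0 allows correspond to 0.0788 to 0.207 CPM. Alpha UMIs numbered 11.6 per 100000 Hbb-bt UMIs in experiment 1 (8.54 to 15.5) and 14.9 in experiment 2 (11.2 to 19.5). By UMIs of RNA, alpha and beta globin were not near balance in either library. The balance usual in erythroid precursors is one of chains, and no chain was measured here. Unlike Hbb-bs, the share of cells with an alpha UMI did not climb with Hbb-bt: it was 0.45%, 0.36%, 0.51% and 0.33% over the same 4 classes of Hbb-bt UMIs in experiment 1 and 0.502%, 0.52%, 0.28% and 0.12% in experiment 2. Of the 38 cells with an alpha UMI in each experiment, 24 and 9 had at least 5 Hbb-bt UMIs. Hba-a1 and Hba-a2 are near-identical copies as well, and their split is uncertain for the same reason.

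Other globins were rare. Hbb-y, an embryonic beta-like globin, had 307 UMIs in 125 cells of experiment 1 and 436 UMIs in 106 cells of experiment 2. A single cell held 109 of them in experiment 1, beside 131 Hbb-bt and 0 alpha UMIs, and another held 186 in experiment 2, beside 99 Hbb-bt and 0 alpha UMIs. Neither cell had a UMI of Slc4a1, Klf1, Gata1, Alas2 or Car1, which are erythroid genes. The 5 cells with the most Hbb-y held 46.6% and 64.7% of its UMIs, so its level in a hashtag turned on single cells: 4.61 CPM in hashtag 6 of experiment 1, against 0.303 to 1.53 CPM in the others. Hbb-bh1, embryonic too, had 1 UMI in each experiment. Hbq1a and Hbq1b, which encode theta-type globins, had 1 UMI each in experiment 1, and 2 and 0 in experiment 2. Hba-x and Hbb-bh2 had 0. Outside haemoglobin, cytoglobin (Cygb) had 24 and 277 UMIs, neuroglobin (Ngb) 7 and 3, and myoglobin (Mb) 0 and 3.

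Hbb-bt was spread very unevenly over cells. In experiment 1 it had at least 1 UMI in 7791 of 9332 cells (83.5%, 82.7 to 84.2%), with a median of 16 UMIs, quartiles of 1 and 69, a 95th percentile of 162 and a maximum of 444. In experiment 2 it had a UMI in 6825 of 10214 cells (66.8%, 65.9 to 67.7%), with a median of 2 UMIs, an upper quartile of 44, a 95th percentile of 175 and a maximum of 518. The variance of UMIs over cells was 76.9 times the mean in experiment 1 and 117 times in experiment 2, against 1.27 and 1.48 for the median gene with a mean of at least 0.05 UMIs. By that ratio Hbb-bt ranked 26 of 10219 and 35 of 10878 genes. Its mean was 43.3 and 35.4 UMIs per cell, far above the bound of 0.05. The ratio can rise with the mean, and the genes were not matched for it, so nothing is read from the rank of Hbb-bt. The 1% of cells with the most held 6.82% of its UMIs in experiment 1 (94 cells) and 9.93% in experiment 2 (103 cells), and 13.4% and 8.55% of cells held 50% of them. Cells with 0 Hbb-bt UMIs numbered 1541 and 3389, and cells with at least 200 numbered 218 and 379. Between these ends no gap was seen, since 2086 cells of experiment 1 and 1529 of experiment 2 had 10 to 49 UMIs. Depth moved with these classes: the median was 20556 UMIs for cells at 0 and 31599.5 for cells at 200 or more in experiment 1, and 18723 and 38234 in experiment 2. With every cell thinned to 3000 UMIs the share of cells with an Hbb-bt UMI was 62.5% in experiment 1 and 44.5% in experiment 2. Median mitochondrial shares of the classes differed little, at 4.498 to 4.63% in experiment 1 and 3.67 to 3.82% in experiment 2.

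**Figure D2:**
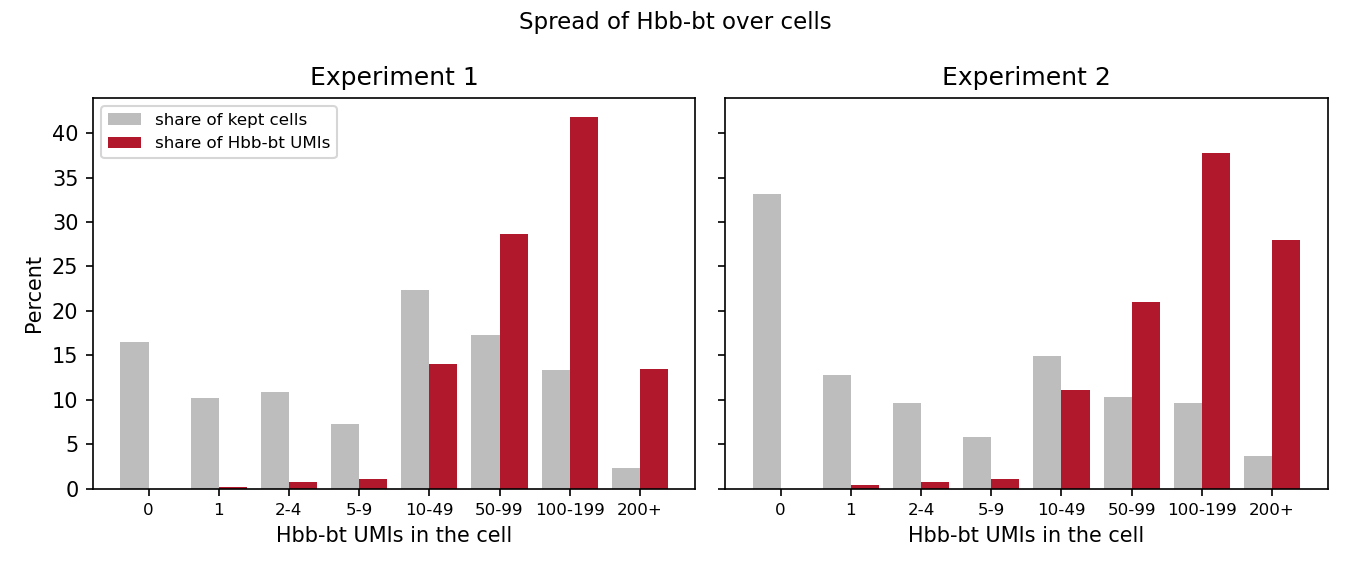
Percent of kept cells (grey) and of all Hbb-bt UMIs (red) in each class of Hbb-bt UMIs per cell (x axis) in experiment 1 (left) and experiment 2 (right). Cells with 0 UMIs make up 16.5% of experiment 1 and 33.2% of experiment 2, and cells with 50 to 99 UMIs hold 28.6% and 21.02% of the UMIs.

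Free RNA in the droplets would reach cells of every kind, so cells with markers of types not known to make haemoglobin were read beside these shares. Stromal markers, the genes of the OP9 layer such as Col1a1 and Col1a2, were carried by 45 cells of experiment 1 (2 of them with exactly 3 markers) and by 579 of experiment 2. Of these, 53.3% (37.9 to 68.3%) and 52.2% (48.002 to 56.3%) had an Hbb-bt UMI, with a median of 1 UMI in both, levels of 589 and 405 CPM, and median depths of 32339 and 37236 UMIs. At least 5 Hbb-bt UMIs were found in 24.4% and 21.8% of stromal-marker cells. B-lineage markers were carried by 184 cells of experiment 2, of which 40.2% had an Hbb-bt UMI (350.1 CPM, median depth 20162.5 UMIs), and mature T markers by 194, of which 40.7% had one (198.5 CPM, median depth 28876 UMIs). A single Hbb-bt UMI therefore does not set a cell apart from these marker classes. Whether their UMIs came from free RNA, from doublets or from the cells themselves was not tested. In hashtag 4 of experiment 2 the share of cells with a UMI (42.4%) was below that of stromal-marker cells, and in hashtag 2 (52.3%) it was the same within counting error. Their shares with at least 5 UMIs, 18.6% and 18.7%, were likewise no higher than the stromal 21.8%, so nothing is read from these shares of cells alone. The summed level was 626 CPM (617 to 636) in hashtag 4 and 350.2 CPM (343 to 357) in hashtag 2. That of stromal-marker cells was 405 CPM (397 to 413). These intervals leave out the spread over cells, so neither difference from stromal-marker cells is read. Stromal-marker cells are themselves a limited reference, since 1 of them held 464 Hbb-bt UMIs, 216 of the 579 had a hashtag call, and the CD45 sort should have removed OP9 cells. Cells with early progenitor markers had an Hbb-bt UMI more often than stromal-marker cells, with shares of 88.6% of 6437 cells in experiment 1 (1779.8 CPM) and 81.5% of 5991 in experiment 2 (1460.2 CPM), at median depths of 27465 and 31579 UMIs. No doublet caller was run. The hashtag rule drops cells with a pair of strong tags, and doublets within a hashtag remain.

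Hashtags differed both in how many cells held Hbb-bt and in how much those cells held. Cells with at least 5 UMIs made up 66.2, 61.5, 29.9, 34.2, 74.4, 76.6, 78.9 and 83.6% of hashtags 1 to 8 in experiment 1. Within those cells the level was 1943, 1869, 1572, 1634, 2722, 3097, 4023 and 3764 CPM. In experiment 2 the shares were 47.3, 18.7, 70.5, 18.6, 54.4, 57.9, 43.7 and 49.5%, and the levels within those cells were 1526, 1380.3, 2845, 2188, 2539, 2198, 3049 and 2380.3 CPM. Hashtags 3 and 4 of experiment 1 were lowest on both measures. Hashtag 7 of experiment 2 had the highest level within such cells but a smaller share of them than hashtags 1, 3, 5, 6 and 8. Depth did not order the hashtags of experiment 1 this way, since hashtags 7 and 8 had the lowest median depths (18057.5 and 20809 UMIs). After thinning to 3000 UMIs, which left out 7 to 22 shallow cells per hashtag, 61.9, 58.5, 32.4, 37.4, 75.8, 76.6, 81.1 and 83.8% of cells in experiment 1 had an Hbb-bt UMI. In experiment 2, with 4 to 24 cells left out, the thinned shares were 45.1, 20.96, 67.9, 22.3, 52.3, 56.01, 45.4 and 49.7%.

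**Figure D3:**
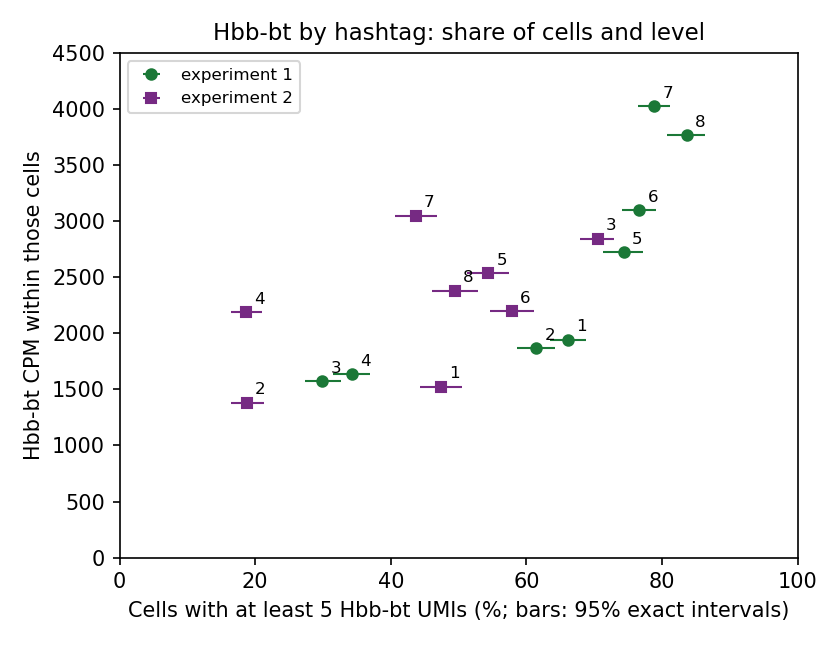
Percent of cells with at least 5 Hbb-bt UMIs (x axis, bars for 95% exact intervals) against the Hbb-bt CPM within those cells (y axis), with 1 point for each hashtag, numbered, of experiment 1 (circles) and experiment 2 (squares). Hashtags 7 and 8 of experiment 1 lie at the upper right and hashtags 2 and 4 of experiment 2 at the left, with 18.7% and 18.6% of cells.

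Experiment 2 had less Hbb-bt than experiment 1. Over tagged cells the level was 1666 CPM in experiment 1 (1660.6 to 1671) and 1291 CPM in experiment 2 (1286 to 1295), a ratio of 0.775 (0.771 to 0.779). Hbb-bs, whose split from Hbb-bt is uncertain, moved by a like amount, with a ratio of 0.751 (0.661 to 0.853). The ratio of Hba-a1 was 0.951 (0.5903 to 1.53), which leaves its change unresolved at 38 UMIs in each. Hashtag levels overlapped between the experiments, since they spanned 570.2 to 3284 CPM in the first and 350.2 to 2175 CPM in the second. Of 2772 genes at 50 CPM or more on average, 0.83% were at least 2-fold higher and 0.0361% at least 2-fold lower in experiment 2, and Hbb-bt was in neither group. Culture time, the mix of vectors and the library itself cannot be told apart in this comparison.

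Hbb-bt was then set against genes that mark steps of early T-cell development. Kit, a receptor of early progenitors, and Il2ra, which appears as cells enter the next stage, split the cells into 4 classes by the presence of a UMI. In experiment 1 Hbb-bt stood at 1232 CPM with Kit alone, 1839 CPM with both, 2022 CPM with Il2ra alone and 1303 CPM with neither. In experiment 2 the values were 1236, 1719, 1166 and 654 CPM. Cells with both were above cells with Kit alone in each pooled comparison, which held within 7 of 8 hashtags of experiment 1 and 5 of 8 of experiment 2. The order of the other classes differed between the experiments. In hashtag 7 of experiment 1, for example, cells with neither gene had the highest level of the 4 classes, at 4393 CPM.

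Bcl11b, which is switched on at T-lineage commitment, and Cd3g, a later part of the T-cell receptor complex, gave a steadier picture. Cells with 0 Bcl11b UMIs had 1788 CPM of Hbb-bt in experiment 1 and 1358 CPM in experiment 2. At 1 Bcl11b UMI (560 and 753 cells) the levels were 1208 and 1061 CPM, and at 2 or more (900 and 1573 cells) they were 731 and 563 CPM. Within hashtags, cells with at least 2 Bcl11b UMIs had less Hbb-bt than cells with 0 in 8 of 8 hashtags of experiment 1, with ratios from 0.259 to 0.592 and a median of 0.439. The same was found in the 7 of 7 hashtags of experiment 2 that had at least 20 such cells, with ratios from 0.181 to 0.763 and a median of 0.3801. Cd3g split the cells likewise, with 1816 and 1404 CPM at 0 UMIs against 671 and 515 CPM at 2 or more. Its ratio was below 1 in 7 of 7 hashtags of experiment 1 and 7 of 8 of experiment 2. Median depth differed little between the Bcl11b classes in experiment 1 (25558 and 23249.5 UMIs) and more in experiment 2 (27533 and 22415 UMIs). The part of depth in this difference was not tested.

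**Figure D4:**
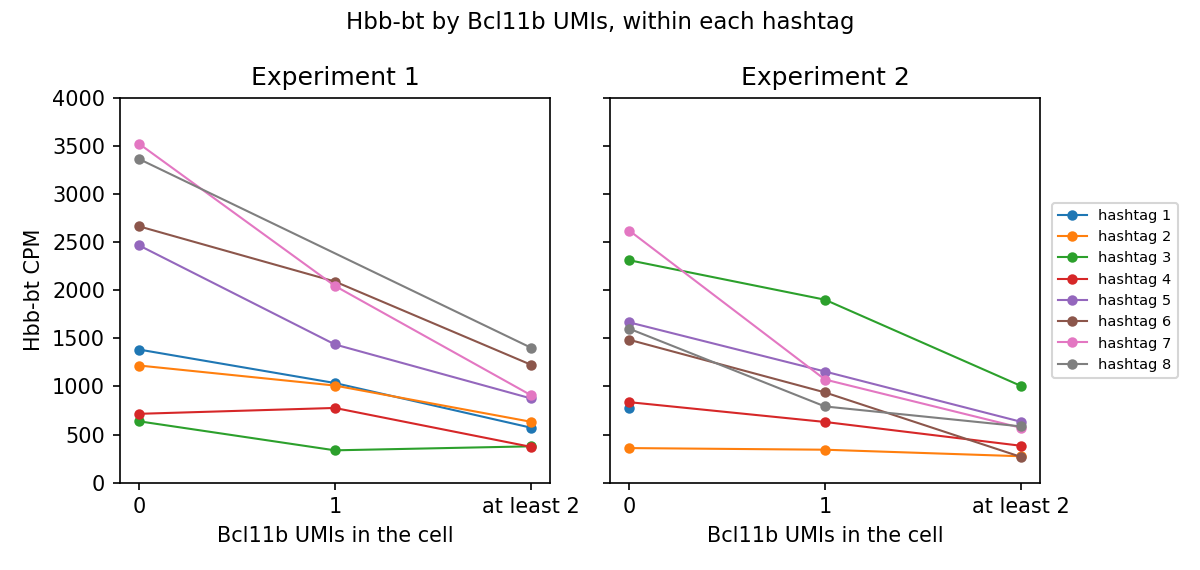
Hbb-bt CPM (y axis) in cells with 0, 1 or at least 2 Bcl11b UMIs (x axis), with 1 line for each hashtag of experiment 1 (left) and experiment 2 (right) and classes of under 20 cells left out. In each hashtag with both values, the level at 2 or more Bcl11b UMIs lies below that at 0, with ratios from 0.259 to 0.592 in experiment 1 and from 0.181 to 0.763 in experiment 2.

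Cells with erythroid markers had a summed Hbb-bt level below that over all kept cells in experiment 1 and above it in experiment 2. Such cells, with at least 2 UMIs of at least 3 genes of the erythroid list, numbered 65 in experiment 1 (55 of them at exactly 3 genes) and 94 in experiment 2 (75 at exactly 3), and 582 and 577 cells had 2 genes. Their Hbb-bt levels were 1134 CPM (1093 to 1176), beside 1654 CPM over all kept cells, and 1394 CPM (1359 to 1429), beside 1224 CPM, with medians of 10 and 3.5 UMIs and median depths of 37870 and 38188.5 UMIs. These intervals leave out the spread over cells, where 1 erythroid-marker cell held up to 219 and 455 Hbb-bt UMIs, so no direction is read. Erythroid-marker cells held 0 and 4 alpha UMIs, the 4 in 1 cell. The defining red-cell genes were at or near 0 in the whole libraries: the band 3 gene Slc4a1 had 0 UMIs in both, and Epb42 had 0 and 1. Ahsp, the alpha globin chaperone, had no row in the tables. Summed over the erythroid list, hashtags held 43.9 to 113 CPM in experiment 1 and 32.9 to 114 CPM in experiment 2, mostly from Hemgn, Bpgm and Car2. Cells with at least 5 Hbb-bt UMIs had 68.8 CPM of this list and cells with 0 had 94.4 CPM in experiment 1, against 58.1 and 78.9 CPM in experiment 2. Summed levels were 811 and 572 CPM with innate lymphoid markers, 944 and 1019 CPM with granulocyte and monocyte markers, and 456 and 739 CPM with mast and basophil markers. Granulocyte- and monocyte-marker cells of experiment 2 were lower than all kept cells by CPM only. Of them 67.7% had an Hbb-bt UMI, with a median of 3 UMIs, beside 66.8% and 2 over all kept cells. Their median depth was 37751 UMIs. Dendritic-marker cells, which made up 25.3% and 34.5% of kept cells, had 1752 and 1401 CPM. Barcodes that failed the cell filter had 758 and 288 CPM, and cells with no hashtag call 1543 and 979 CPM.

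Genes that track Hbb-bt over cells were ranked by Pearson's r of log2(UMIs per 10000 + 1) over the 9332 and 10214 kept cells. Points share a library, a depth range and hashtags, so r is a description. Over all genes with a UMI in at least 1% of cells, the median r was -0.0059 and -0.0022. In experiment 1, 79 of 11980 genes had an r of at least 0.2 (0.659%), and in experiment 2, 287 of 12853 did (2.23%). The 38 genes in common are 48.1% of the first list and 13.2% of the second, and 15 of them are ribosomal protein genes. These counts depended on depth and on hashtags. With cells thinned to 3000 UMIs they were 3 and 9, and as the mean of the r within each hashtag they were 13 and 175. Without cells carrying markers of mast, granulocyte, stromal, B-lineage or dendritic cells, a choice made after the data were seen, they were 64 and 99.

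Ctla2a, a cysteine protease inhibitor gene, led both lists with r = 0.46 and 0.38, and with 0.27 and 0.30 as the mean within hashtags. It had a positive r in 8 of 8 hashtags of each experiment. Ramp1, a receptor activity modifying protein gene, had 0.38 and 0.34 (0.24 and 0.26 within hashtags), and Tespa1, a thymocyte signalling gene, had 0.30 and 0.34 (0.23 and 0.29). The other leading genes of experiment 1 were Ptpn18, Myl10, Cd37, Ptpre, Tspan32, Mbnl1 and Ccl5, from 0.36 down to 0.30. Those of experiment 2 were Npm1, Cox4i2, Phgdh, Ncl, Cd34, Hsp90aa1 and Eef1g, from 0.37 down to 0.33. Several of these were not shared: Npm1, a nucleolar gene, had r = 0.09 in experiment 1, and Ccl5, a chemokine gene, had 0.13 in experiment 2. Cd34, a gene of early progenitors, had 0.22 and 0.33. Hbb-bs itself had 0.26 and 0.28, at a mean within hashtags of 0.23 and 0.27, despite its few UMIs. The split of reads between Hbb-bs and Hbb-bt is uncertain, and its part in this r was not tested.

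Some relations were weaker within hashtags than over all cells. Cox4i2, a cytochrome oxidase subunit gene, had r = 0.29 in experiment 1 but 0.10 as the mean within hashtags, while in experiment 2 it had 0.35 and 0.25. Runx1, the gene that part of the cultures overexpressed, had 0.30 over all cells of experiment 1 and 0.09 within hashtags, and 0.09 and 0.05 in experiment 2. Runx3 had 0.13 and 0.22, or 0.04 and 0.12 within hashtags. Bcl2 had -0.15 and -0.16. Vector and transgene transcripts were not separated from those of the mouse genes. How far they were counted under Runx1 and Bcl2 was not measured, so the r of these genes may or may not include them.

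An r of -0.2 or below was found for 21 genes in experiment 1 (0.175%) and 48 in experiment 2 (0.373%). The 10 in common, 47.6% and 20.8% of the lists, included Gsn, Clec12a, Cpne2, Mrpl52, Cd3g, Anxa2, Skap1, Timp2 and Bcl11b. Gsn, which encodes the actin-severing protein gelsolin, was the most negative with r = -0.35 in both, and -0.09 and -0.23 within hashtags. Skap1, a T-cell adaptor, had -0.22 and -0.27, and -0.29 and -0.27 within hashtags. Bcl11b had -0.21 and -0.22, and Cd3g had -0.22 and -0.26, both negative in 8 of 8 hashtags of each experiment. Some genes changed sign between the experiments, such as Ptma, with -0.25 and 0.20.

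**Figure D5:**
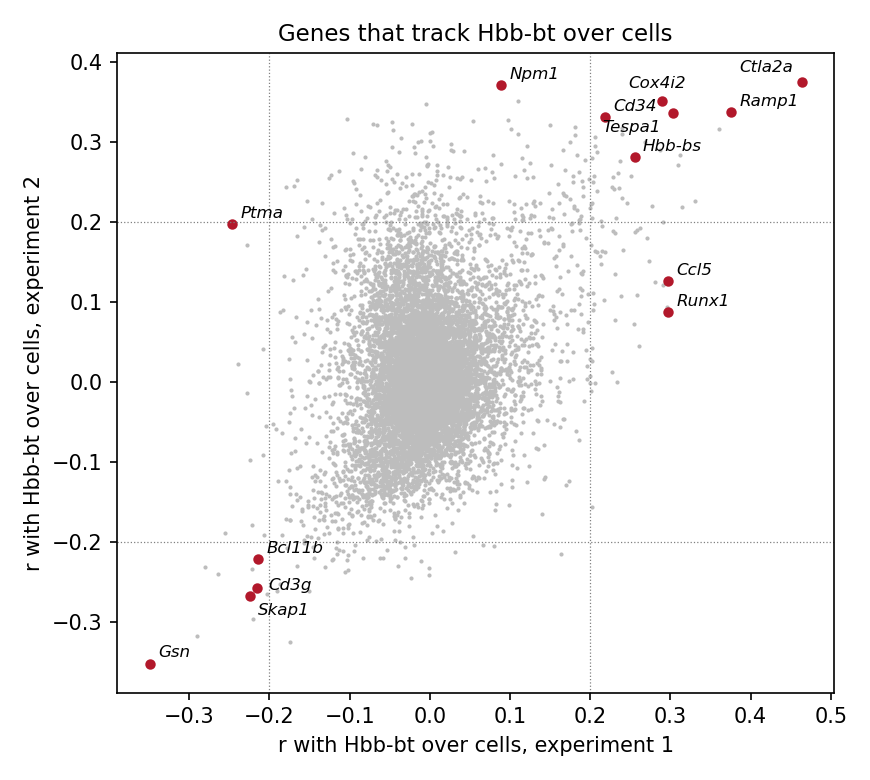
Pearson's r with Hbb-bt over cells for each gene in experiment 1 (x axis) and experiment 2 (y axis), over the 11852 genes with a UMI in at least 1% of cells of both, with dotted lines at 0.2 and -0.2 and named genes in red. Ctla2a lies at the upper right with 0.46 and 0.38, and Gsn at the lower left with -0.35 in both.

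A second view set cells with at least 5 Hbb-bt UMIs (5831 and 4535) against cells with 0 (1541 and 3389). Depth medians were 26313 and 20556 UMIs in experiment 1 and 31972 and 18723 in experiment 2. Few genes were higher by a large factor. Of 7293 genes of experiment 1, 2 were at least 4-fold higher (0.0274%), namely Ccl5 at 4.87-fold (4.35 to 5.48) and Cox4i2 at 4.07-fold (3.69 to 4.504). In experiment 2 it was 1 of 6918 genes (0.0145%), Cox4i2 at 5.08-fold (4.80 to 5.38), while Ccl5 was at 0.918-fold. Those next in experiment 1 included Ptgir, Khdc1a, Ctla2a, Tgm2, Ifi209, Slc36a3os and Camk2a, from 2.65-fold down to 2.07-fold. Next in experiment 2 came Egfl7, Afap1l1, Nrarp, Ptger3, Slc35d3, Cd34, Fam212a, Dnmt3b and Bcl2l14, from 2.91-fold down to 2.15-fold. Nrarp is a known target of Notch signalling. Many more genes were lower: 53 of 7496 (0.707%) were at least 4-fold lower in experiment 1 and 293 of 7559 (3.88%) in experiment 2. Hbb-bs stood at 3.67 CPM in the cells with at least 5 Hbb-bt UMIs and at 0.124 CPM in cells with 0 in experiment 1, from 591 and 4 UMIs, and at 3.13 and 0.1298 CPM in experiment 2, from 499 and 9.

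Genes of the haem and iron pathways were then read against the shares over all genes, 0.659% and 2.23% at an r of at least 0.2 and 0.175% and 0.373% at -0.2 or below. Lists this short would hold few or no such genes at those shares, so a count of 0 sets a list apart from no other. Of 14 haem synthesis genes, 13 could be ranked and 0 had an r of at least 0.2 or of -0.2 or below in either experiment, with median r of -0.03 and 0.004. Alas2, the erythroid first enzyme of the pathway, had 7 and 1 UMIs in all, while Alas1, its housekeeping form, had 17.3 and 17.7 CPM. The leading members Tmem14c and Alad had 1.07 and 0.942 times the level in cells with at least 5 Hbb-bt UMIs as in cells with 0 in experiment 1, and 1.09 and 1.13 times in experiment 2. Iron uptake and storage genes also gave 0 of 9 and 0 of 10. There the ferritin genes Fth1 and Ftl1 were at 0.959 and 0.885 times in experiment 1 and 0.907 and 0.699 times in experiment 2, and the transferrin receptor gene Tfrc at 0.861 and 0.948 times. Among haem breakdown genes, Hp (haptoglobin) alone passed -0.2, with r = -0.22 in experiment 2.

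The counts that follow stand beside the same shares, 0.659% and 2.23% of all genes at an r of at least 0.2. Of 10 erythroid transcription factor genes, 0 passed in experiment 1 and 1 in experiment 2, Lyl1, with r = 0.18 and 0.32. Gata1 and Klf1, the main activators of globin genes in red-cell precursors, had 182 and 128 UMIs in experiment 1 and 255 and 200 in experiment 2. Summed, the list stood at 295 CPM in the cells with at least 5 Hbb-bt UMIs and 275 CPM in cells with 0 in experiment 1, and at 261 and 179.8 CPM in experiment 2. Its members went both ways: Nfe2, a partner of the small Maf proteins, was at 1.43 and 1.78 times, and Gata1 was at 0.465 against 1.74 CPM and 0.558 against 1.197 CPM. Lmo2 and Ldb1, parts of the complex that GATA1 joins, had r = -0.04 and 0.07 in experiment 1, and 0.09 each in experiment 2. Of 4 ranked globin repressor genes, 0 and 1 passed: Bcl11a had 0.17 and 0.24, Myb -0.09 and 0.11, and Ikzf1 -0.09 and -0.06. Erythroid markers gave 0 of 5 and 0 of 6, with Hemgn at -0.08 and 0.06, Bpgm at -0.06 and -0.02, and Car2 at 0.01 and 0.002. Megakaryocyte markers gave 0 of 3 and 1 of 3, the integrin gene Itga2b, with 0.02 and 0.21.

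Summed CPM of markers of other blood and stromal cells was mostly higher in cells without Hbb-bt than in cells with at least 5 UMIs. By r, 0 of 8 and 0 of 10 granulocyte and monocyte markers were at -0.2 or below, beside 0.175% and 0.373% of all genes. Stromal markers gave 0 of 4 and 0 of 7. An Hbb-bt UMI was found in 77.0% and 67.7% of granulocyte- and monocyte-marker cells. Granulocyte and monocyte markers summed to 315 CPM in cells with at least 5 Hbb-bt UMIs and 1552 CPM in cells with 0 in experiment 1, and to 1324 and 14188 CPM in experiment 2. At least 4-fold lower were 7 of 9 and 8 of 10 of them, S100a8 and S100a9 included, beside 0.707% and 3.88% of all genes compared. Stromal markers summed to 29.2 and 217 CPM in experiment 1 and 329 and 1474 CPM in experiment 2, with 6 of 6 and 7 of 7 at least 4-fold lower. B-lineage markers had 0 of 1 and 5 of 6 at least 4-fold lower, mature T markers 3 of 3 in experiment 2, mast and basophil markers 1 of 5 and 4 of 5, innate lymphoid markers 1 of 5 and 3 of 6, and dendritic markers 0 of 5 and 0 of 6. Over the hashtags of experiment 1 the granulocyte list spanned 226 to 1541 CPM and the stromal list 1.81 to 78.6 CPM. Over those of experiment 2 they spanned 198 to 12325 CPM and 158 to 789 CPM. With cells carrying mast, granulocyte, stromal, B-lineage or dendritic markers left out, the ratio of the highest to the lowest hashtag for Hbb-bt was 5.04 and 4.48.

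T-lineage genes mostly had a negative r with Hbb-bt, with Il2ra as the main exception. Of 10, 2 had an r of -0.2 or below in experiment 1 (Cd3g and Bcl11b) and 3 in experiment 2 (Cd3d as well). The shares over all genes were 0.175% and 0.373%. Il2ra had 0.14 and 0.13, and Tcf7, an early T-cell factor, had -0.15 and 0.002. Lck had -0.19 and -0.06, Gata3 -0.17 and -0.07, and Cd3e -0.13 and -0.17. Ptcra had -0.03 and -0.09, and Notch3 0.002 and -0.09. Of this list only Il2ra was higher in cells with at least 5 Hbb-bt UMIs than in cells with 0, at 1.53 and 1.56 times. Cd3g was at 46.8 CPM in cells with at least 5 Hbb-bt UMIs and 165 CPM in cells with 0 in experiment 1, and at 79.2 and 405.5 CPM in experiment 2. Early progenitor genes gave 1 of 10 at r of at least 0.2 in both experiments, beside 0.659% and 2.23% of all genes. That gene was Cd34, at 155 against 101 CPM and 156 against 63.7 CPM. Ly6a had r = 0.19 and 0.12, Spi1 0.07 and 0.05, Mef2c 0.14 and 0.19, and Kit 0.004 and 0.14. The rest went both ways: Hhex had 0.07 and 0.199, Lmo2 -0.04 and 0.09, and Meis1 0.03 and -0.01. Hoxa9 had -0.14 and 0.01, and Flt3 -0.04 and 0.03. Ratios of cells with at least 5 Hbb-bt UMIs to cells with 0 were also mixed, such as 0.867 and 0.815 for Spi1 and 1.35 and 1.78 for Mef2c. The median r was 0.05 and 0.11 for this list and -0.16 and -0.09 for the T-lineage list.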

How the data were processed

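The deposited mRNA tables hold raw counts of UMIs per gene and cell, made by the authors from 10x Chromium v3 libraries with Cell Ranger 3.0.0 on mm10/GRCm38, per the submitters' processing notes. The deposited hashtag tables hold counts per cell and tag. Whether these are molecules or reads is not given in the sources used here, and neither is the filter that chose the barcodes. All rows were mouse Ensembl genes, and 71 rows shared a symbol and were kept apart by ID. The members, gene lists and cut-offs were chosen with earlier results of these data known. Summed counts per hashtag were scaled to CPM with all genes as the total, and a log2 scale was used for r only. Named genes were the globins, the 3 most abundant members of each list, and the 10 genes of highest r and of highest ratio in each experiment; the genes of lowest r, Runx1, Runx3, Bcl2, Kit and Il2ra, and some lower-ranked list members were added after their values were seen. For cells compared by Hbb-bt, a gene could be called higher with at least 10 UMIs in cells with 0 and 10 CPM in the others, and lower with these reversed. No test was run, since each experiment was 1 library. Scripts used numpy 2.4.6, scipy 1.17.1 and pandas 2.3.3 and were tested on simulated data. Alternatives covered hashtag calls (Seurat 5.3.0 HTODemux among them), cell filters, depth, and scaling with edgeR 4.0.16 or DESeq2 1.42.0. A few genes that these rules name are not reported here.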

Additional observations from a re-analysis of the deposited data

Results flagged for a closer look

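Hba-a2 stood at 0.0374 CPM in hashtag 6 of experiment 2, from 1 UMI, and at 0 in the other hashtags of that experiment, which set this value apart from the rest by the gap between the highest and the next hashtag. It is below the level that 3 counts would give in that hashtag, 0.112 CPM. The hashtags are cultures of unknown condition and not replicates of a group. With 1 UMI in 1 hashtag and 0 in the others such a gap is fixed by construction, so nothing is read from it.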

How the results depend on the processing

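No paired analysis was possible because the hashtag columns carry neither conditions nor replicate numbers and no test was run. The ratio of the highest to the lowest hashtag for Hbb-bt in experiment 1 (5.76) was 6.12 with a top tag of at least 100 counts and 5 times the next, 5.33 with 20 counts and 2 times, 6.12 with HTODemux, 5.28 with the stricter cell filter, 7.37 after thinning, 6.09 without the 5 top cells of each hashtag, 7.64 as a mean over cells and 5.04 without other-marker cells, a setting chosen after seeing the data. In experiment 2 (6.21) these were 6.43, 5.91, 7.63, 5.93, 6.95, 6.88, 6.88 and 4.48, and scaling by TMM gave 6.61 and by DESeq2 size factors 6.58. Leaving out 1 hashtag gave 4.98 to 5.76 in experiment 1 and 3.47 (without hashtag 2) to 6.21 in experiment 2. The ratio of experiment 2 to experiment 1 (0.775) was 0.799, 0.761, 0.754, 0.844, 0.637, 0.765 and 0.636 under the first 7 of these settings, and 0.655 to 0.869 without 1 hashtag. The share of cells with an Hbb-bt UMI was 84.6% with the stricter filter, 81.1% with every barcode and 62.5% after thinning in experiment 1, and 68.9%, 65.3% and 44.5% in experiment 2. The top 1% of cells held 7.14% of UMIs with every barcode and 8.94% after thinning in experiment 1, and 10.2% and 11.3% in experiment 2, where the stricter filter gave 9.46%. Genes with r of at least 0.2 numbered 3 after thinning and 13 within hashtags in experiment 1, and 9 and 175 in experiment 2, with 99 there without other-marker cells. Genes at least 4-fold higher numbered 1 with the stricter filter and 1 at 3 UMIs in experiment 1, and 2 after thinning in experiment 2. Where thinning lowers a count of genes, fewer UMIs per cell are left by construction; for the other settings the cause was not tested. Depth limits the alpha genes most, since a few UMIs set each value.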

Other observations

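Alpha globin UMIs were found in a larger share of cells with innate lymphoid markers than of other cells, a pattern looked for after the alpha counts were seen. Of the 383 cells of experiment 1 with at least 2 UMIs of at least 3 innate lymphoid genes, 14 held an alpha UMI (3.66%, 2.01 to 6.06%), against 0.268% of the other cells (0.172 to 0.399%). These 14 cells held 23 of the 47 alpha UMIs (48.9%). In experiment 2 it was 20 of 664 cells (3.01%, 1.85 to 4.61%) against 0.188% of the others (0.112 to 0.298%), with 27 of 54 alpha UMIs. Median depths were 23268 and 25307 UMIs in experiment 1 and 26367.5 and 26656 in experiment 2. The marker class lies near its cut, as 248 and 302 of its cells had exactly 3 genes and 2317 and 2313 cells had 2. The same cells were low in Hbb-bt, with 811 and 572 CPM and medians of 1 and 0 UMIs. Cells with erythroid markers, 65 and 94 in number, held 0 of 47 and 4 of 54 alpha UMIs, the 4 in 1 cell. Their shares with an alpha UMI were 0% (0 to 5.52%) and 1.06% (0.027 to 5.79%). These intervals hold the shares of the cells with innate lymphoid markers, so no difference between these 2 marker classes is read.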
